A study of Mus musculus with 4 samples.

Results

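The cerebellum and the olfactory bulb of the mouse were compared at embryonic day 17.5, gene by gene, as the cerebellum value minus the olfactory bulb value on a log2 scale. Both were embryonic tissue of ICR mice, an outbred stock, with no treatment and no genetic change named in the labels. Tissue of 13 mice was pooled for the cerebellum array and of 14 mice for the olfactory bulb array, and the same study measured the pontine nucleus (15 mice) and the superior colliculus (16 mice) on 1 Affymetrix array each. Genes were taken from probe sets annotated with 1 gene symbol, and the probe set with the highest mean stood for a gene with several. Genes entered the comparison where their brightest of the 4 arrays exceeded 8.56, the median of all gene levels, which left 10908 of 19938 genes. A gene was called different when the 2 arrays lay at least 1 log2 unit, or 2-fold, apart. That held for 493 genes, 4.52% of those compared, of which 225 (2.06%) were higher in the cerebellum and 268 (2.46%) in the olfactory bulb. Counts of calls in the lists below are to be read beside these shares. For 5 of the 225 and 2 of the 268, neither array of the pair exceeded the floor, and another region brought the gene into the comparison. With 1 array per region there is no SD, no test and no replicate check, and a regional difference cannot be told apart from a difference between 2 pooled preparations. The number of arrays limits how precise any value can be.

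Both regions still add neurons at this age. In the cerebellum, progenitors of the rhombic lip spread over the surface as the external granular layer. They divide there in response to sonic hedgehog from Purkinje cells. Purkinje cells and inhibitory interneurons come from other progenitors of the same territory. The olfactory bulb grows out of the telencephalon: its projection neurons, the mitral and tufted cells, are born locally, and its inhibitory granule and periglomerular interneurons arrive as migrating neuroblasts from the lateral ganglionic eminence and its later derivative, the subventricular zone. In pooled tissue, fewer cells of a type and less RNA per cell cannot be told apart, which holds for every gene below.

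The gene with the largest difference in each direction (Arhgef33 and Nts), and a transcription factor gene from each side whose window holds a homeodomain core (Barhl1 and Tbr1), are shown by the sequence at their start, the stretch where regulators of a gene act. The windows are RefSeq promoters of build GRCm38.p6, from 250 bases before to 50 bases after the gene start, printed 5′ to 3′ on the gene's strand. Capitals mark the homeodomain core TAATTA and the E-box CAGCTG, both of which read the same on the other strand and do not overlap each other. The windows are Arhgef33 at chr17:80307157-80307456 on the plus strand, Barhl1 at chr2:28916619-28916918 on the minus strand, Nts at chr10:102490369-102490668 on the minus strand and Tbr1 at chr2:61804203-61804502 on the plus strand.
Arhgef33: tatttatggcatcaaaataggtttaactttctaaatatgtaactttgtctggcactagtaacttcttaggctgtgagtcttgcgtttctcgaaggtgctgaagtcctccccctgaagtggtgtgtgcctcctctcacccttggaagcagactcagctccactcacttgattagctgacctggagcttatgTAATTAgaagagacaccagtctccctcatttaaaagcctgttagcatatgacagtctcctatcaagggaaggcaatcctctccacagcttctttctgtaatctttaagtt
Barhl1: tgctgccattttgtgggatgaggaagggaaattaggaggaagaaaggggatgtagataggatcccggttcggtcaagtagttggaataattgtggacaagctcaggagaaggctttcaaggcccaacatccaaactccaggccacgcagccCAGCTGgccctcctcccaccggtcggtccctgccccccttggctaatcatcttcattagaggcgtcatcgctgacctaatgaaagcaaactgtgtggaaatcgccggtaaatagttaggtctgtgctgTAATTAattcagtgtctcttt
Nts: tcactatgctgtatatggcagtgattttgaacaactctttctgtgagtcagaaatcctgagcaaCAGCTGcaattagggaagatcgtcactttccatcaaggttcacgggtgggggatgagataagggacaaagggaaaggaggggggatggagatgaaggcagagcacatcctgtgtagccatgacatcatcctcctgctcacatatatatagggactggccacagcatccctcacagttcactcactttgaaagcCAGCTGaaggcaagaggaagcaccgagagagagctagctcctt
Tbr1: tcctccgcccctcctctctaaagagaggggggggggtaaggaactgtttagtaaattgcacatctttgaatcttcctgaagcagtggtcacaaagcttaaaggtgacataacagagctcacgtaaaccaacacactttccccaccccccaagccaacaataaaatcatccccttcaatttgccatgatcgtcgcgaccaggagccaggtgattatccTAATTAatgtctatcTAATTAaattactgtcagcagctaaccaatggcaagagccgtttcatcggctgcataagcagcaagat
The Arhgef33 window held 1 homeodomain core, the Barhl1 window shown 1 core and 1 E-box, the Nts window 2 E-boxes and the Tbr1 window 2 cores. Barhl1 has a 2nd window in the table, at chr2:28912446-28912745 on the minus strand and not shown, with 0 cores and 1 E-box. Over all windows, the homeodomain core stood in 11 of 228 (4.82%) of genes higher in the cerebellum, in 17 of 286 (5.94%) of genes higher in the olfactory bulb, in 288 of 11336 (2.54%) of all compared genes and in 1738 of 32851 (5.29%) of all promoters in the table. The E-box stood in 50 (21.9%), 53 (18.5%), 1742 (15.4%) and 5355 (16.3%) of the same sets. Windows were found for 172 of the 225 and 205 of the 268 genes. These matches describe letters in a window and are not shown to be binding sites.

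The 4 genes that mark the regions were chosen with earlier results of these data known, so the side they stand on is no test. En2, a homeobox factor that patterns the midbrain and hindbrain, read 11.47 in the cerebellum and 7.26 in the olfactory bulb, with 6.95 in the pontine nucleus and 7.44 in the colliculus. Arhgef33 read 11.79, 6.83, 7.11 and 7.04 in the same order, and was the gene with the largest difference toward the cerebellum, 4.96 log2 units. Both were bright on the cerebellum array and dim on the other 3. Nts, which encodes the neuropeptide neurotensin, read 6.57 in the cerebellum and 11.78 in the olfactory bulb, with 5.62 in the pontine nucleus and 6.82 in the colliculus. Its difference of 5.21 log2 units toward the bulb was the largest of all compared genes. Dlx1, a homeobox gene of forebrain inhibitory neurons, read 7.84, 12.89, 7.79 and 7.81, so that the 3 regions other than the bulb read nearly the same.

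**Figure D1:**
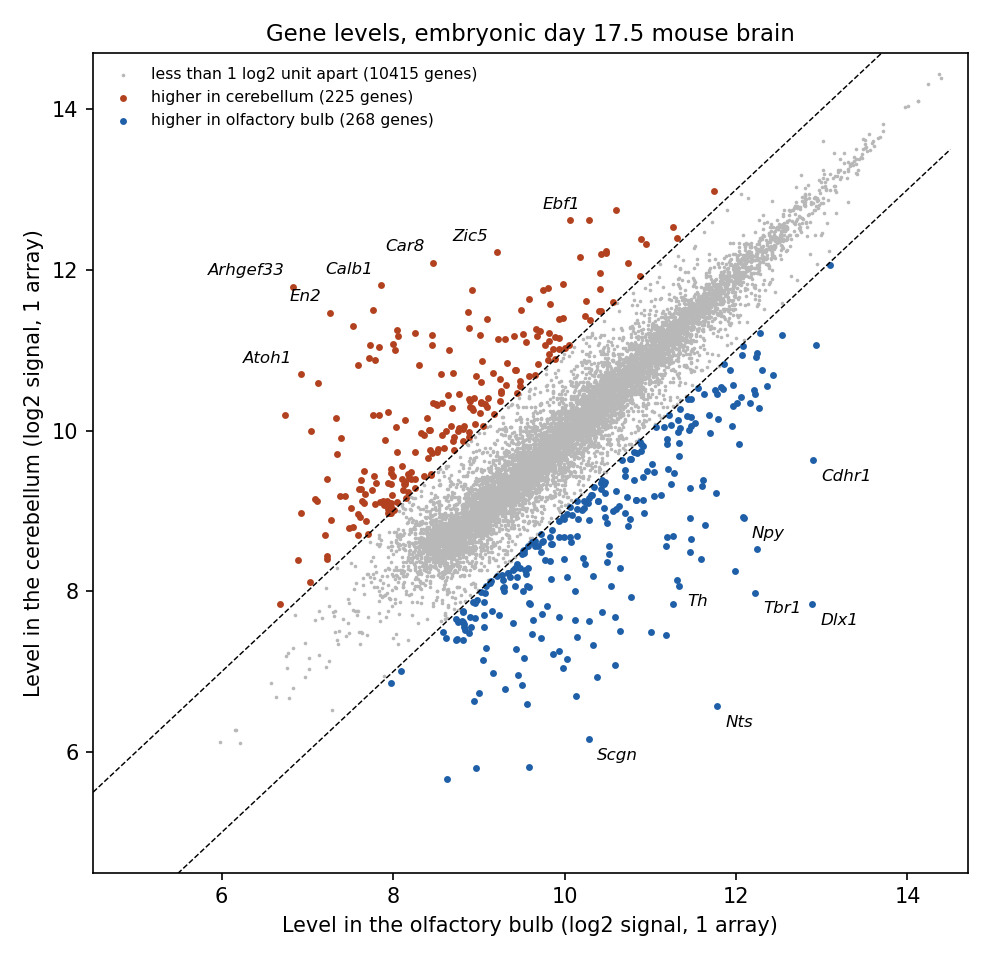
Level of each compared gene in the cerebellum (vertical axis, log2 signal) against the olfactory bulb (horizontal axis, log2 signal), 1 array each. Dashed lines lie 1 log2 unit from equality; 225 genes lie above them and 268 below, with named genes labelled.

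Most genes read alike. Of 27 called genes with several probe sets, all probe sets pointed the same way in 26 and all passed the size rule in 12. Of the compared genes 86.0% lay within 0.5 log2 units, the median difference was -0.05, and the median size of a difference was 0.16. A difference of at least 2 log2 units (4-fold) was found for 49 genes toward the cerebellum and 64 toward the bulb, and of at least 3 for 18 and 22. Background was read from 203 vomeronasal receptor and beta-defensin genes, whose levels had a median of 5.19 and a 95th percentile of 7.33. Of their differences, 95% lay between -0.36 and 0.41 and 0 reached 1, but 0 of them lay above the floor, so they give no error rate for the compared genes. The lower of the 2 levels lay under 7.33 for 17 of the genes higher in the cerebellum and 25 of those higher in the bulb. For these, background may compress the printed difference, and its size is uncertain. At the limit itself, Hepacam and Sez6l stood just inside at 1.0, and Aqp4 and Ptpn5 just outside at 0.99. Toward the bulb Deptor (-1.01) and Cryl1 (-1.0) stood inside, and Tmtc1 and Thbs2 (both -0.99) outside.

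The other 2 arrays show how far a difference belonged to the pair. Of the 225 genes higher in the cerebellum, the cerebellum was the brightest of all 4 arrays for 155, the pontine nucleus for 36 and the superior colliculus for 34. Of the 268 genes higher in the bulb, the bulb was the brightest for 222. These counts ask for no margin. The cerebellum lay at least 1 log2 unit above both remaining regions for 29.3% of the 225, and the bulb for 39.6% of the 268. Over all 10908 compared genes, chosen without regard to the pair, the cerebellum was the brightest for 2076. The bulb was the dimmest array for 145 of the genes higher in the cerebellum. Among the genes higher in the bulb the dimmest array was the cerebellum for 112 and the pontine nucleus for 132. Among the 15 largest differences toward the cerebellum, Mab21l2, Barhl1 and Tfap2b were brighter still in another region. All of the 15 largest toward the bulb were brightest there.

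Some of the 15 largest differences on each side lie outside the neuron lists. Mab21l2, a relative of the granule lineage gene Mab21l1, read 11.06 in the cerebellum and 7.73 in the bulb, with 13.37 in the pontine nucleus and 12.51 in the colliculus, so that the bulb alone was low. Timp4, an inhibitor of matrix metalloproteinases, read 10.82, 7.59, 9.70 and 8.65 in the same order. Ucma, known from growth plate cartilage, read 10.20, 6.74, 8.91 and 6.74. Both had the pontine nucleus as the region next below the cerebellum. Toward the bulb, the calcium-dependent membrane-binding copine gene Cpne6 read 8.25 in the cerebellum and 11.99 in the bulb, with 8.11 and 8.03 in the other 2 regions. Its relative Cpne4 read 7.84, 11.26, 8.26 and 9.89. Atp6ap1l, named for its likeness to a proton pump accessory subunit, read 5.81, 9.59, 5.19 and 6.01, and was within the background range outside the bulb.

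**Figure D2:**
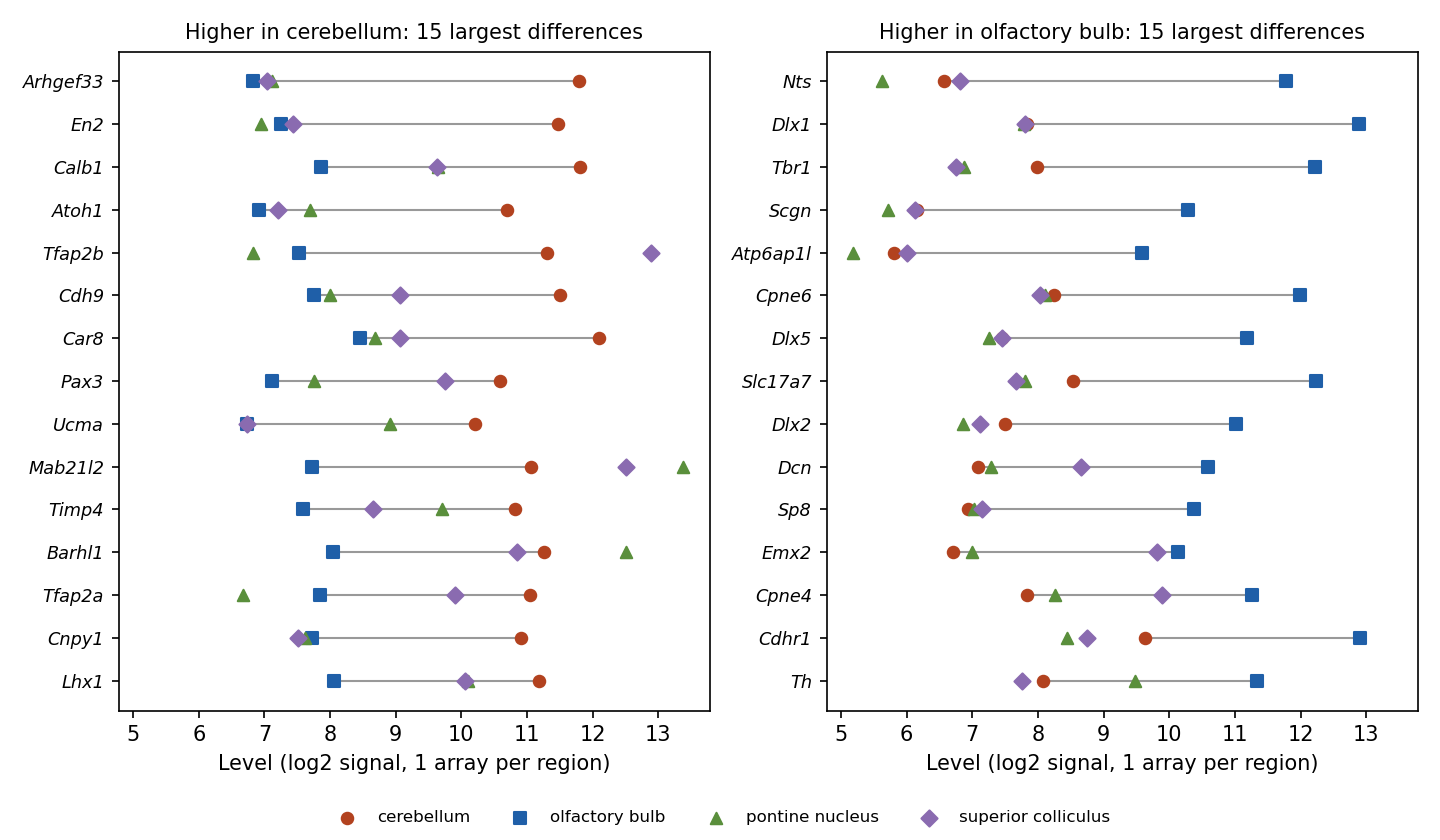
Levels (horizontal axis, log2 signal) of the 15 genes with the largest difference in each direction on all 4 arrays, 1 symbol per region, with a line joining cerebellum and olfactory bulb. Arhgef33, En2, Atoh1 and Cnpy1 are bright in the cerebellum and dim in every other region. Mab21l2, Barhl1 and Tfap2b are brighter in the pontine nucleus or the superior colliculus. Every gene on the right is brightest in the bulb.

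Genes of the granule cell lineage, which makes the most numerous neurons of the cerebellum, were mostly higher there. Of 24 compared members, 13 were called toward the cerebellum and 2 toward the bulb, with a median difference of 1.06 against -0.05 for all compared genes. Atoh1, the basic helix-loop-helix factor that defines granule cell precursors, read 10.70 in the cerebellum, 6.92 in the bulb, with 7.70 in the pontine nucleus and 7.20 in the colliculus, a difference of 3.78. Barhl1, a homeobox gene of rhombic lip neurons, read 11.25, 8.05, 12.50 and 10.84, a difference of 3.20. Both are genes of rhombic lip derivatives. The pontine nucleus, also a rhombic lip derivative, was brighter for Barhl1 and dim for Atoh1. Zic2 read 12.75 in the cerebellum, 10.60 in the bulb, with 13.26 in the pontine nucleus and 12.09 in the colliculus. Mab21l1 read 11.50, 9.49, 10.29 and 11.27 in the same order. For both genes the bulb was the dimmest region. Tlx3, a homeobox gene, read 9.27 in the cerebellum and at most 7.60 elsewhere. The members higher in the bulb were Etv1, an ETS factor that also marks bulb interneurons, at 10.34 and 12.16, and the adhesion gene Cntn2 at 10.54 and 11.82. Neurod1, Zic1 and Pax6 differed by 0.78, 0.76 and 0.59 and did not reach the size rule.

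The Purkinje cell list, the output neurons of the cerebellar cortex, had 14 of 20 compared members called toward the cerebellum and 0 toward the bulb. The median was 1.71. Arhgef33, described above and chosen with earlier results of these data known, is among the 14. Calb1, the calcium buffer calbindin, read 11.81 in the cerebellum, 7.86 in the bulb, with 9.64 in the pontine nucleus and 9.63 in the colliculus, a difference of 3.95. Car8, a carbonic anhydrase relative known from Purkinje cells, read 12.09, 8.46, 8.69 and 9.07, a difference of 3.63. The LIM homeobox gene Lhx1, which acts early in Purkinje cells, read 11.18, 8.06, 10.10 and 10.05. Calb1, Car8 and Lhx1 were thus brightest in the cerebellum and dimmest in the bulb. The early B-cell factor genes Ebf2, Ebf3 and Ebf1 were higher by 3.08, 2.56 and 2.34. The corepressor genes Skor1 and Skor2 were higher by 2.83 and 2.02, Rora, the nuclear receptor needed for Purkinje cell maturation, by 1.77, and Foxp2 by 1.35. The only compared member below 0 was Bcl11a, at -0.72.

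Inhibitory interneurons and nuclear neurons of the cerebellum gave 5 of 10 compared members toward the cerebellum and 1 toward the bulb, with a median of 1.14. Tfap2b, an AP-2 factor of inhibitory precursors, read 11.30 in the cerebellum, 7.53 in the bulb, with 6.82 in the pontine nucleus and 12.88 in the colliculus. Its relative Tfap2a read 11.04, 7.84, 6.67 and 9.90. Both were high in the cerebellum and colliculus and low in the other 2 regions. Pax2, a paired-box gene of interneuron precursors, read 10.23 in the cerebellum and between 7.94 and 8.06 elsewhere. Slc6a5, the glycine transporter of glycinergic neurons, read 9.12 and 7.64 in the pair. The member higher in the bulb was Slc17a6, the vesicular glutamate transporter VGLUT2, at 10.50 and 11.75. Genes of the midbrain-hindbrain boundary, the signalling centre from whose hindbrain side the cerebellum forms, had 4 of 12 toward the cerebellum with a median of 0.32. These were En2, Cnpy1, Pax2 and En1. Cnpy1, a regulator of FGF signalling known from zebrafish, read 10.91 in the cerebellum and at most 7.72 elsewhere, and En1 read 9.04 against at most 7.70. Among Pax and Zic genes, 5 of 8 were called toward the cerebellum, with a median of 1.81. With no level floor, 11 members gave a median of 0.90. Pax3 read 10.59 in the cerebellum, 7.12 in the bulb, with 7.75 in the pontine nucleus and 9.75 in the colliculus, and Zic5 read 12.22, 9.21, 12.40 and 10.91. Zic5 differed by 3.01 on this probe set and by 1.4 on its other probe set. Of the Iroquois genes, 3 of 5 (Irx2, Irx1 and Irx5) were called toward the cerebellum, by 2.02, 1.22 and 1.21, with a median of 1.21. Irx2 read 10.72 in the cerebellum, 8.70 in the bulb, with 12.45 in the pontine nucleus and 10.77 in the colliculus. Irx1 read 9.73, 8.51, 11.28 and 9.85 in the same order, and Irx5 9.20, 7.99, 9.32 and 9.61. All 3 were thus brighter in both other regions than in the cerebellum, and the bulb alone was low.

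The olfactory bulb interneuron list lay on the other side. Of 24 compared members 16 were called toward the bulb and 2 toward the cerebellum, with a median of -1.85. Dlx1 is described above, and its relatives Dlx5, Dlx2 and Dlx6 differed by -3.72, -3.51 and -2.15. Scgn, the calcium-binding protein secretagogin, read 6.16 in the cerebellum, 10.28 in the bulb, with 5.72 in the pontine nucleus and 6.13 in the colliculus. Sp8, a zinc finger factor of the interneuron lineage, read 6.93, 10.38, 7.03 and 7.15. Th, the tyrosine hydroxylase of the dopaminergic periglomerular cells, read 8.07, 11.33, 9.48 and 7.76. All 3 stood highest in the bulb on these arrays. The calretinin gene Calb2 and Meis2, which marks the lineage, differed by -1.99 and -1.87. The 2 members toward the cerebellum were the nuclear receptor genes Nr2f1 and Nr2f2, at 10.16 against 8.39 and 11.11 against 9.82. Gad1 and Gad2, the enzymes of GABA synthesis in both regions' inhibitory neurons, differed by -0.48 and -0.63.

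Mitral and tufted cells, the glutamatergic projection neurons of the bulb, gave 7 of 12 compared members toward the bulb and 0 toward the cerebellum, with a median of -1.49. Tbr1, a T-box factor of these cells, read 7.98 in the cerebellum, 12.22 in the bulb, with 6.87 in the pontine nucleus and 6.75 in the colliculus. Slc17a7, the vesicular glutamate transporter VGLUT1, read 8.53, 12.24, 7.80 and 7.67, and Cdhr1, which encodes a cadherin-related protein of mitral cells, read 9.63, 12.90, 8.44 and 8.75. In all 3 the cerebellum was the nearest of the other regions to the bulb and still at least 3 log2 units below it. Eomes, the T-box factor Tbr2, read 10.51 in the cerebellum, 12.21 in the bulb, with 6.66 in the pontine nucleus and 6.85 in the colliculus. It was therefore high in both regions of the pair and dim in the other 2, and is known also from unipolar brush cells of the cerebellum. Tbx21 read 9.73 in the bulb and at most 7.52 elsewhere. Reln, expressed by mitral cells and by cerebellar granule cells, differed by -0.84. Nts, described above and chosen with earlier results of these data known, is among the 7 called. The telencephalon list had 6 of 13 toward the bulb and 0 toward the cerebellum, with a median of -0.93. Emx2, a homeobox gene of the dorsal telencephalon, read 6.70, 10.13, 6.99 and 9.81, and Lhx2 read 8.40, 11.59, 9.78 and 11.31. Both were nearly as bright in the superior colliculus as in the bulb. The orphan nuclear receptor gene Nr2e1 and Fezf2 differed by -2.36 and -2.02.

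**Figure D3:**
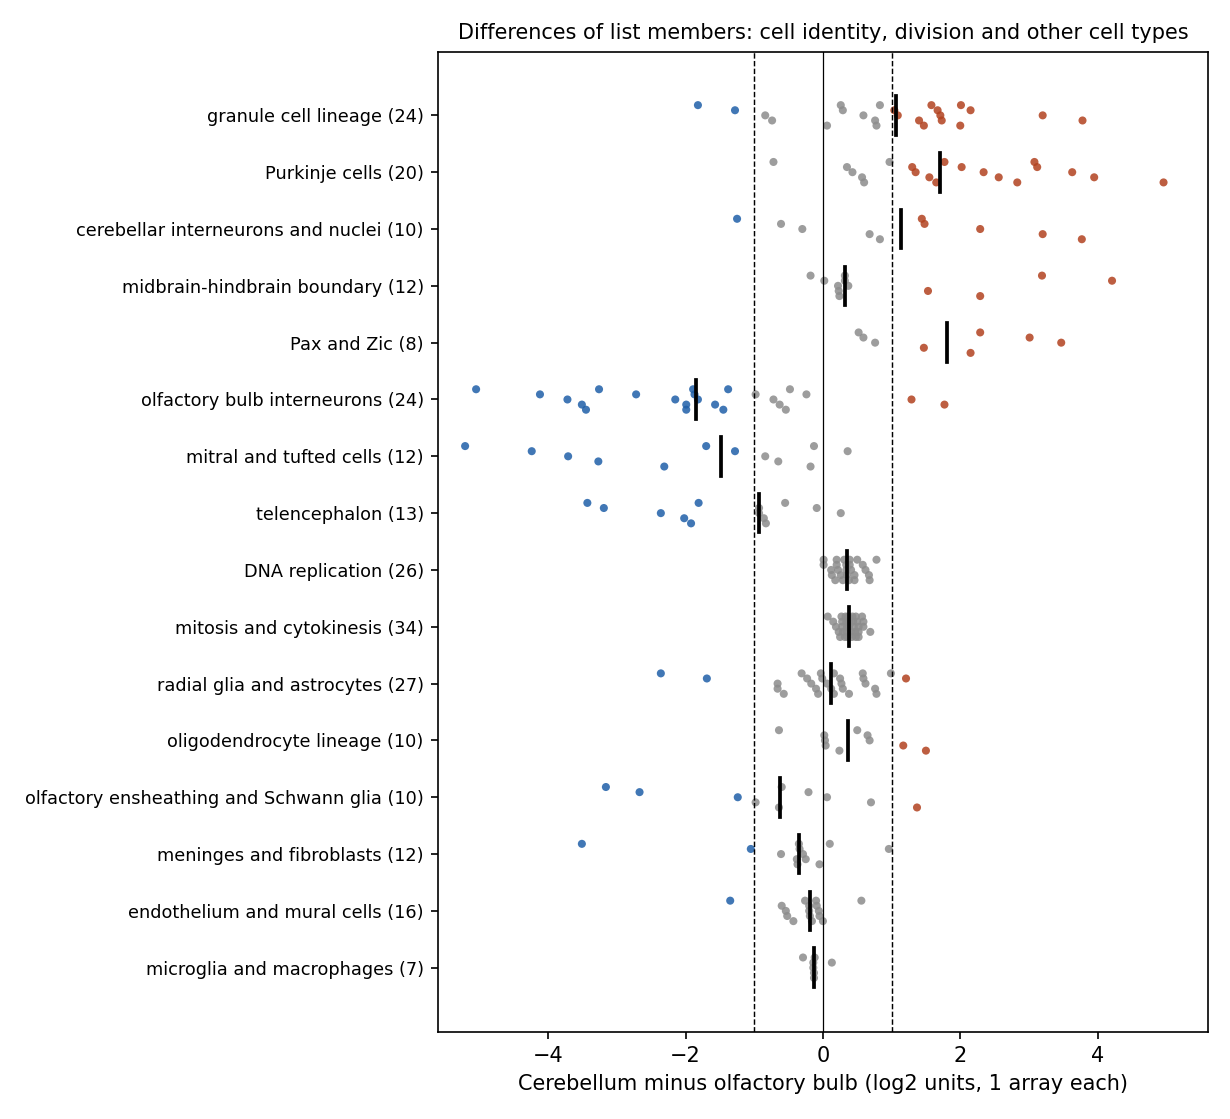
Difference of each compared list member (horizontal axis, log2 units, cerebellum minus olfactory bulb, 1 array each), with the list median as a black bar and the number compared in brackets. Members at least 1 log2 unit apart are coloured. Medians of the cerebellar lists shown lie above 0, down to 0.32 for the midbrain-hindbrain boundary. Those of the bulb lists shown lie below 0. The 60 division genes form a narrow band between 0.01 and 0.78.

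Genes of cell division read slightly higher in the cerebellum. All 60 compared members of the DNA replication and mitosis lists read higher there than in the bulb, by 0.01 to 0.78 with a median of 0.38 (1.3-fold), and 0 of them reached the size rule. For all compared genes 39.4% read higher in the cerebellum. A difference of 0.5 or more was seen in 14 of the 60 (23.3%), against 6.05% of all compared genes. The median level of the 60 was 9.90 in the cerebellum, 9.53 in the bulb, with 8.71 in the pontine nucleus and 8.57 in the colliculus, and the cerebellum was the brightest array for all 60. Mcm6, a subunit of the replicative helicase, read 10.30, 9.52, 8.95 and 8.68. Bub1, a kinase of the spindle checkpoint, read 10.30, 9.61, 8.16 and 7.99. Mki67, the proliferation antigen Ki-67, read 11.50, 10.93, 9.50 and 9.27. For Bub1 and Mki67 the bulb lay nearer to the cerebellum than to either remaining region, and for Mcm6 it lay nearer to the pontine nucleus. Among regulators of the cycle, 1 of 20 was called, beside 4.52% of all compared genes. It was the inhibitor gene Cdkn1c, at 10.64 in the cerebellum and 9.25 in the bulb. The D-type cyclin gene Ccnd1 differed by 0.81 and Ccnd2 by -0.22.

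**Figure D4:**
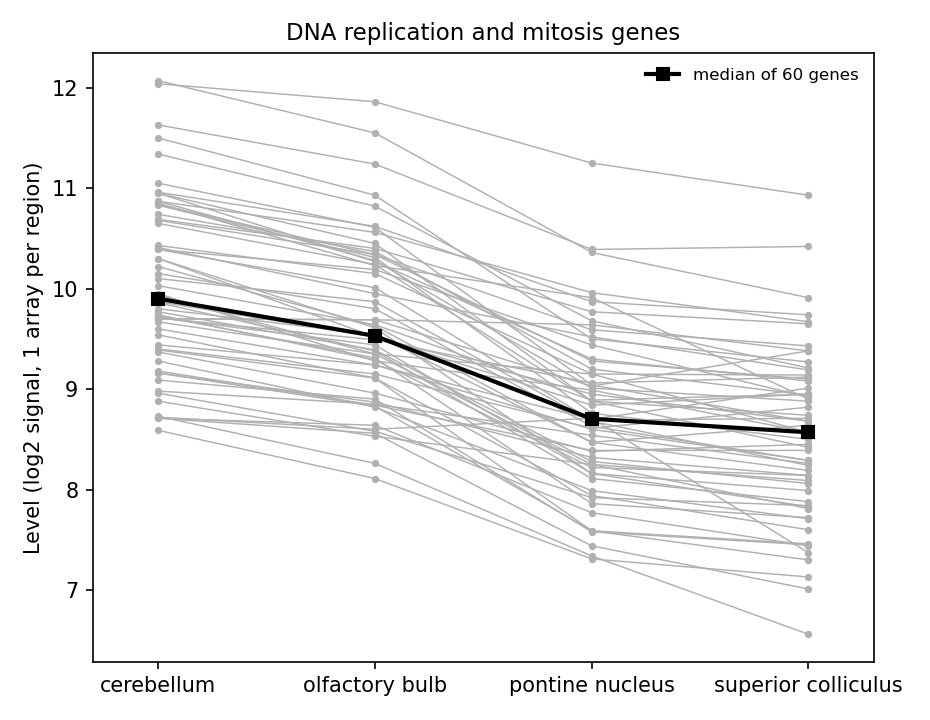
Level (vertical axis, log2 signal) of the 60 compared DNA replication and mitosis genes on the 4 arrays, 1 per region, 1 grey line per gene and the median in black. The median is 9.90 in the cerebellum and 9.53 in the olfactory bulb, with 8.71 in the pontine nucleus and 8.57 in the colliculus.

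Progenitor, migration and neurogenic genes were called in both directions. Of 27 radial glia and astrocyte genes, 1 was called toward the cerebellum and 2 toward the bulb, with a median of 0.12. These were Id3, an inhibitor of basic helix-loop-helix factors, at 10.02 and 8.81 in the pair, Ndp, the Norrin ligand, at 9.14 and 10.83, and Nr2e1. The intermediate filament gene Nes read 10.88 and 10.89, and Sox2 read 10.87 and 11.18. Of 21 genes of migrating neuroblasts, 1 was called toward the cerebellum and 2 toward the bulb, with a median of -0.11. Slit2, a secreted repellent, read 10.32 and 8.51, Tnr, the matrix protein tenascin-R, read 9.33 and 11.24, and Efnb2 read 10.46 and 12.22. Dcx, the microtubule protein of young neurons, read 12.87 in the cerebellum, 13.07 in the bulb, with 13.26 in the pontine nucleus and 13.01 in the colliculus. Of 30 neurogenic and postmitotic genes, 5 were called toward the cerebellum (Atoh1, Nhlh1, Nhlh2, Nfix and Olig1) and 2 toward the bulb (Neurod6 and Eomes), with a median of 0.18. Of all compared genes 4.52% were called in either direction.

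In sonic hedgehog signalling, 11 of 14 compared genes read higher in the cerebellum with a median of 0.63, but only 1 was called in each direction. Boc, a coreceptor for the ligand, read 11.40 in the cerebellum, 9.98 in the bulb, with 8.46 in the pontine nucleus and 9.74 in the colliculus. Sfrp1, a secreted Wnt inhibitor placed on this list and on the Wnt list, read 10.57, 11.97, 10.76 and 9.99. The receptor and target gene Ptch1 read 11.49 and 10.63 in the pair, and the target gene Gli1 read 9.33 and 8.55. Wnt genes gave 3 calls toward the cerebellum and 4 toward the bulb among 27, with a median of 0.23. Toward the cerebellum stood the receptor gene Fzd10 (1.69), the inhibitor gene Sfrp2 (1.53) and the ligand gene Wnt3 (1.07). Toward the bulb stood the ligand gene Wnt7a, at 8.07 and 10.54, the inhibitor genes Frzb (-2.67) and Sfrp1, and the receptor gene Lgr5 (-1.06). In the BMP and TGF-beta list, 1 of 21 was called toward the cerebellum and 3 toward the bulb, with a median of 0.12. The 3 were ligand genes, while the ligand genes Bmp6 (0.96) and Tgfb2 (0.62) read higher in the cerebellum without reaching the size rule. Tgfb3 read 8.49 in the cerebellum, 11.46 in the bulb, with 7.76 in the pontine nucleus and 8.52 in the colliculus, and Bmp5 and Bmp7 differed by -1.79 and -1.58. Id3, a target of the pathway, was the call toward the cerebellum.

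FGF genes had 2 calls toward the cerebellum, the ligand genes Fgf3 (1.81) and Fgf5 (1.06), and 1 toward the bulb, Fgf12 (-1.25), among 19, with a median of 0.22. In the retinoid list, 2 of 12 were called toward the cerebellum and 1 toward the bulb, with a median of 0.12. Cyp26b1, which degrades retinoic acid, read 10.88 in the cerebellum, 7.79 in the bulb, with 9.98 in the pontine nucleus and 8.14 in the colliculus. Dhrs3, which reduces retinal to retinol, read 11.19, 8.45, 8.33 and 9.33. Crabp1, a retinoic acid binding protein, read 9.81 and 10.91 in the pair. The Notch list had 1 call toward the cerebellum, the effector gene Hey1 (1.03), and 2 toward the bulb, the effector gene Hey2 (-1.80) and the ligand gene Jag1 (-1.02), among 19, with a median of 0.16. Nuclear receptors had 5 of 16 toward the cerebellum and 1 toward the bulb, with a median of 0.15, led by the estrogen-related receptor genes Esrrg (2.61) and Esrrb (2.05). Of 22 neurotrophic genes, 1 was called toward the cerebellum, the receptor gene Ntrk3 (1.23), and 2 toward the bulb, with a median of -0.15. Igf1, the insulin-like growth factor gene, read 8.91 in the cerebellum, 11.46 in the bulb, with 7.79 in the pontine nucleus and 9.82 in the colliculus, and its binding protein gene Igfbp5 differed by -1.04.

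Guidance and adhesion genes split between the regions. In the Eph and ephrin list, 4 of 19 were called toward the cerebellum and 2 toward the bulb, with a median of 0.20. Those toward the cerebellum were all receptors, Epha4 (1.92), Epha7 (1.74), Ephb1 (1.33) and Epha8 (1.23). Those toward the bulb were both ligands, Efnb2 (-1.76) and Efnb1 (-1.13). Epha4 read 11.14 in the cerebellum, 9.22 in the bulb, with 10.39 in the pontine nucleus and 10.81 in the colliculus, so that the bulb was the region with the low level. Efnb2 read 10.46, 12.22, 9.70 and 9.94, so that the bulb was the region with the high level. Of 27 semaphorin, plexin and neuropilin genes, 2 were called toward the cerebellum and 4 toward the bulb, with a median of -0.07. Both neuropilin genes, Nrp1 (-1.56) and Nrp2 (-1.48), and the ligand genes Sema3e (-2.26) and Sema3c (-1.76) stood toward the bulb, and Plxnb2 (1.09) and Sema7a (1.03) toward the cerebellum. Of 22 Slit, Robo and netrin genes, Slit2 (1.81), the netrin receptor gene Unc5c (1.73) and Draxin (1.35) stood toward the cerebellum and Ntng1 (-1.28) toward the bulb, with a median of 0.04. The other probe set of Ntng1 differed by -0.58 and that of Ephb1 by 0.85, both short of the size rule.

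Cadherins had 4 calls toward the cerebellum and 3 toward the bulb among 34, with a median of 0.03. Pcdh15, called toward the cerebellum at 1.25, differed by only 0.13 on its other probe set. Cdh9, a classical type II cadherin, read 11.50 in the cerebellum, 7.76 in the bulb, with 8.0 in the pontine nucleus and 9.07 in the colliculus. Cdh8, of the same type, read 11.64, 9.59, 12.11 and 12.12, so that the bulb alone was low. Fat3 read 10.69 and 12.43 in the pair. Of 33 matrix genes, the basement membrane gene Nid1 (1.98) and Prelp (1.54) stood toward the cerebellum and Dcn, Tnr and Lamb1 toward the bulb, with a median of -0.11.

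Genes of transmission stood on both sides. Of 16 neuropeptide genes, 5 were called toward the bulb and 1 toward the cerebellum, with a median of -0.91. With no level floor the median over 33 genes was 0.04, so its direction rests on the floor. Npy, neuropeptide Y, read 8.92 in the cerebellum, 12.08 in the bulb, with 8.37 in the pontine nucleus and 9.90 in the colliculus. Trh, the thyrotropin-releasing hormone gene, read 10.15 in the bulb and at most 7.52 elsewhere. Tac1, the substance P precursor gene, read 7.64, 9.63, 5.19 and 10.16. Sst, the somatostatin gene, was the exception, at 12.20 in the cerebellum, 10.42 in the bulb, with 12.86 in the pontine nucleus and 12.48 in the colliculus. Of 18 peptide receptor genes, Sstr2 (1.14) stood toward the cerebellum and Nmbr (-2.70) and Ntsr1 (-1.72) toward the bulb, with a median of 0.14. The receptor Ntsr1 and its ligand gene Nts therefore both stood toward the bulb, and Sstr2 and Sst both toward the cerebellum.

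In the GABA and glycine list, 2 of 22 were called toward the cerebellum and 3 toward the bulb, with a median of -0.29. The 3 were GABA-A receptor subunits, Gabrg1 (-2.51), Gabra5 (-2.19) and Gabra2 (-1.66). Gabrg1 read 8.68 in the cerebellum, 11.19 in the bulb, with 12.52 in the pontine nucleus and 10.57 in the colliculus, so that the cerebellum was the low region. Those toward the cerebellum belong to glycine, the transporter gene Slc6a5 and the receptor subunit gene Glra1 (1.09). Glra1 read 8.12 in the cerebellum and 7.03 in the bulb, both under the floor of 8.56. It was compared because the pontine nucleus read 8.79. Of 33 glutamate genes, 2 were called toward the cerebellum, the kainate receptor subunits Grik4 (1.21) and Grik2 (1.09), and 5 toward the bulb, with a median of 0.13. The 5 were both vesicular transporters described above and the metabotropic receptors Grm8 (-1.98), Grm2 (-1.42) and Grm4 (-1.25).

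Of 23 monoamine and acetylcholine genes, 6 were called toward the cerebellum and 3 toward the bulb, with a median of -0.01. Htr1b, a serotonin receptor, read 10.20 in the cerebellum, 7.84 in the bulb, with 8.68 in the pontine nucleus and 10.14 in the colliculus. The nicotinic subunit genes Chrna3 (1.69) and Chrna4 (1.34) and the choline transporter gene Slc5a7 (1.16) stood on the same side. Slc5a7 lay under the floor in both regions, at 7.84 in the cerebellum and 6.68 in the bulb, with 10.43 in the pontine nucleus. Th, Maob (-2.15), an enzyme of monoamine breakdown, and the serotonin receptor gene Htr2a (-1.86) stood toward the bulb. The voltage-gated channel list also holds leak channels and channel partners. Of its 52 compared genes, 3 were called toward the cerebellum and 6 toward the bulb, with a median of -0.04. Kcnip2, a potassium channel partner, had the largest difference at -2.85. Toward the cerebellum stood the potassium leak channel genes Kcnk9 (1.23) and Kcnk1 (1.21) and the auxiliary calcium channel subunit gene Cacna2d2 (1.13). Presynaptic genes had 2 and 1 calls among 29, with a median of -0.27, and postsynaptic genes 0 and 1 among 26, with a median of -0.21. Of all compared genes 2.06% and 2.46% were called in these directions. The postsynaptic call was Camk2a, a kinase of excitatory synapses, at 9.29 and 11.46. Among calcium-binding proteins, 2 of 20 stood toward the cerebellum and 6 toward the bulb, with a median of 0.03: Calb1 led the former, and Scgn, Cpne6, Cpne4 and Calb2 the latter. Cerebellins and their partners had 1 call toward the cerebellum, C1ql3 (1.77), and 2 toward the bulb, Cbln4 (-1.90) and Cbln2 (-1.5), among 9. Cbln1, the cerebellin of granule cells, differed by 0.83.

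**Figure D5:**
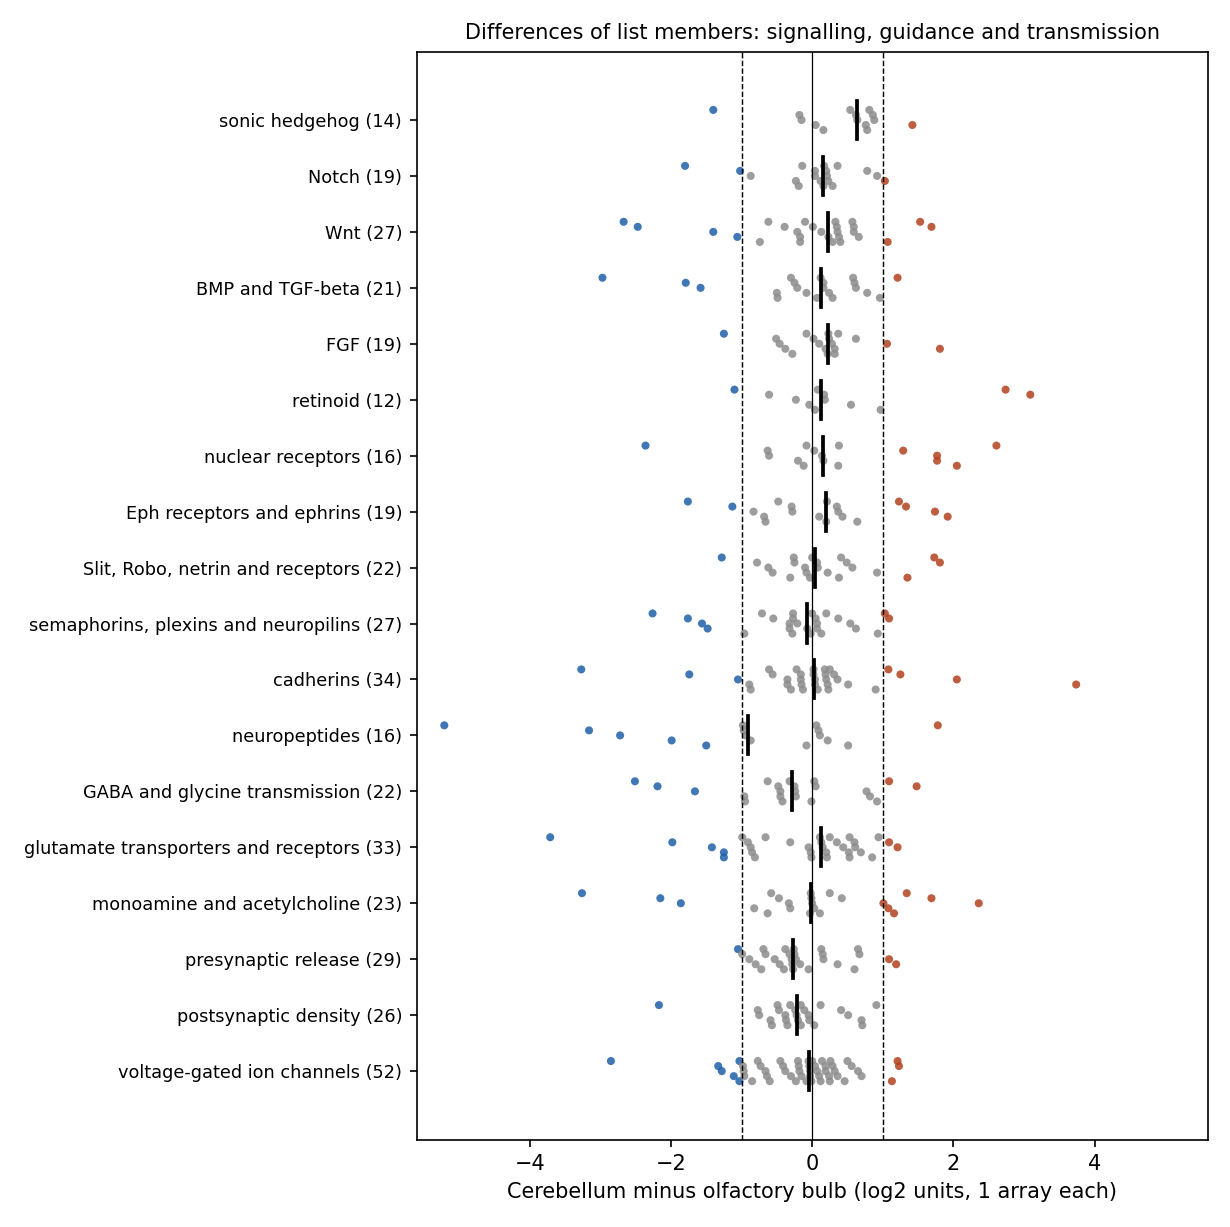
Difference of each compared list member (horizontal axis, log2 units, cerebellum minus olfactory bulb, 1 array each), with list medians as black bars and the number compared in brackets. Members at least 1 log2 unit apart are coloured; medians lie between -0.91 for neuropeptides and 0.63 for sonic hedgehog, with called genes on both sides in every list shown except postsynaptic density, whose 1 call lies toward the bulb.

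Markers of other cell types that the dissections could hold are given beside these results, and their part in them was not tested. The olfactory ensheathing and Schwann glia list had 3 of 10 compared members toward the bulb and 1 toward the cerebellum, with a median of -0.62 and a summed level, as log2, of 14.82 in the cerebellum and 14.99 in the bulb. Npy, Frzb and the receptor gene Erbb3 (-1.24) were the 3, so 2 of them are also counted above as neuropeptide and Wnt genes. Meningeal and fibroblast genes had 2 of 12 toward the bulb and 0 toward the cerebellum, with a median of -0.34 and summed levels of 13.00 and 13.36. The proteoglycan gene Dcn read 7.08 in the cerebellum, 10.59 in the bulb, with 7.28 in the pontine nucleus and 8.65 in the colliculus, and the collagen genes Col1a1, Col1a2 and Col3a1 differed by -0.37, -0.34 and -0.25. Endothelial and mural genes had 1 of 16 toward the bulb, Vtn (-1.35), with a median of -0.20 and summed levels of 13.69 and 14.00. Of all compared genes 2.46% were called toward the bulb.

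Of the choroid plexus list, Otx2 and Sostdc1 were compared and both stood toward the cerebellum, by 2.14 and 1.61. Otx2 is also a gene of granule cell precursors and of the midbrain, and read 10.70 in the cerebellum, 8.56 in the bulb, with 7.04 in the pontine nucleus and 11.93 in the colliculus. The defining plexus genes Ttr and Kl lay below the floor on all arrays, at 7.35 and 7.29 in the cerebellum, and the median over all 11 measured members was 0.04. The summed level was 11.82 in the cerebellum and 10.97 in the bulb. Omp, the defining gene of mature olfactory sensory neurons, also lay below the floor, at 8.06 and 7.92, and 0 of 4 compared members of that list were called. Oligodendrocyte genes had 2 of 10 toward the cerebellum, Bcas1 (1.5) and Olig1 (1.17), with a median of 0.37 and summed levels of 12.86 and 12.47. Bcas1 lay under the floor in both regions, at 8.39 in the cerebellum and 6.89 in the bulb, with 9.0 in the pontine nucleus. Microglial (7 compared) and erythroid (3 compared) genes gave 0 calls, with medians of -0.13 and -0.35. Immediate early, hypoxia, sex-linked and housekeeping genes also gave 0 calls, with medians of -0.15, -0.21, -0.28 and -0.02. LIM genes gave 2 calls toward the cerebellum and 1 toward the bulb among 11, with a median of -0.11, and POU genes 1 toward the bulb, Pou3f3 (-1.02), among 7, with a median of -0.78.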

How the data were processed

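The authors deposited 1 log2 signal per probe set and array. The scale is inferred: the values ran from 2.43 to 14.57. Affymetrix Expression Console is the tool named, per the submitters' processing notes. Version, background correction and normalization are not stated in the sources used here. Extraction used Trizol and RNeasy, and labelling used Ambion and Affymetrix WT kits, per the labels' protocols. Array medians of 8.07 to 8.13 were taken as already scaled, and scaling can remove a general difference between regions. Signals of weak genes approach background, which compresses differences.

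Of 35556 probe sets, 21789 had 1 gene symbol, 1621 several and 12146 no entry in the array's annotation. For 999 genes with several probe sets, the highest mean stood for the gene, and 19855 of 19938 genes were matched by Entrez ID to RefSeq GRCm38.p6. No model was fitted, since each region has 1 array. The code that makes the calls was tested on simulated data; this is no test of the regions. The members and the 52 gene lists were chosen with earlier results of these data known, so list counts are descriptions. Named genes were the 15 largest differences in each direction, without antigen receptor segments, pseudogenes, predicted genes, small RNAs and chemosensory (olfactory, vomeronasal) receptors, with up to 4 called members per list and direction, or 2 by size where none was called. Other genes named were chosen after their values were seen. Alternatives were 4 other level floors, quantile normalization, a median difference set to 0, the mean of probe sets and a limit of 2 log2 units. Python 3.11.15, NumPy 2.4.6, pandas 2.3.3 and Matplotlib 3.10.9 were used.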

Additional observations from a re-analysis of the deposited data

How the results depend on the processing

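With a level floor at the 75th percentile of gene levels, 144 genes were higher in the cerebellum and 165 in the olfactory bulb, fewer because fewer genes were compared, and with a limit of 2 log2 units 49 and 64. Under the other alternatives the counts lay between 220 and 245 toward the cerebellum and between 244 and 299 toward the bulb. Setting the median difference to 0 gave 244 in each direction. Of 362 list medians under the alternatives, 347 stayed on their side of 1 log2 unit, 10 moved inside it and 5 moved outside it, and 16 medians, from 11 lists, changed sign, all of them within 0.5 log2 units of 0 under the alternative. The neuropeptide median turned from -0.91 to 0.04 with no floor and with the background floor. The Pax and Zic median was 0.90 under both. With the floor at the 75th percentile, which leaves fewer genes per list, the medians were 2.29 for the midbrain-hindbrain boundary, 1.46 for retinoid genes, 1.29 for nuclear receptors, -1.32 for the telencephalon and -1.93 for meninges. The Wnt and Eph and ephrin medians were then -0.10 and -0.28. The granule cell median was 0.94 with no floor, with the higher floor and with the mean of probe sets, the median of cerebellar interneurons and nuclei was 0.76 with no floor, and the mitral and tufted median was -0.93 with the mean of probe sets. The cause was not tested. No paired analysis was possible because each region has 1 array. Levels under 7.33, in the range of the background genes, leave the size of 17 differences toward the cerebellum and 25 toward the bulb uncertain. No value has a replicate error.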

Other observations

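Several gene families lay apart in ways the lists above do not describe. These families were picked after their values were seen, so they are given as values only. All 5 AP-2 transcription factor genes were called, and they divided: Tfap2a and Tfap2b stood toward the cerebellum, by 3.20 and 3.77, and Tfap2c, Tfap2d and Tfap2e toward the olfactory bulb, by -2.50, -1.43 and -1.85. Tfap2c read 6.96 in the cerebellum, 9.46 in the bulb, with 6.77 in the pontine nucleus and 6.78 in the colliculus, and Tfap2d was brightest in the superior colliculus at 11.68. All 3 teashirt zinc finger genes stood toward the bulb, Tshz1 by -1.89, Tshz2 by -1.46 and Tshz3 by -1.11, and both Dach genes stood toward the cerebellum, by 2.29 and 1.32. Zic2, Zic4 and Zic5 were called toward the cerebellum and Zic1, at 0.76, was not. Of 4 nuclear factor I genes, Nfix (1.5) was called and the other 3 lay between 0.43 and 0.84.

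Of 6 compared heparan sulfate 3-O-sulfotransferase genes, which place a late sulfate on heparan chains, 4 stood toward the bulb: Hs3st3a1 (-2.31), Hs3st2 (-1.74), Hs3st1 (-1.42) and Hs3st3b1 (-1.35). Both compared hyaluronan synthase genes stood toward the cerebellum, Has2 by 1.97 and Has3 by 1.11. Of 4 neurofilament and internexin genes, Nefm (2.62) and Nefl (1.24), subunits of the axonal cytoskeleton, stood toward the cerebellum, Nefm reading 11.07 there, 8.45 in the bulb, with 9.59 in the pontine nucleus and 9.26 in the colliculus. Among 8 compared copine genes, of calcium-dependent membrane-binding proteins, Cpne9 (2.52) stood toward the cerebellum, and Cpne6 (-3.74), Cpne4 (-3.42) and Cpne5 (-1.19) toward the bulb. Of 8 compared Ras guanine nucleotide exchange factor genes, 3 were called, all toward the bulb: Rasgrp1 (-3.18), Rasgrf1 (-2.66) and Rasgef1a (-1.31). The other 5 lay between -0.77 and 0.32. Of 14 compared synaptotagmin genes, 3 were called, all toward the bulb: Syt10 (-3.14), Syt6 (-1.54) and Syt17 (-1.10). The other 11 lay between -0.87 and 0.60.

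Some called genes are neighbours on the chromosome. Of 6520 pairs of adjacent RefSeq genes that were both compared, both members were called toward the cerebellum in 12, both toward the bulb in 13, and in opposite directions in 9. Of all compared genes, taken singly, 2.06% were called toward the cerebellum and 2.46% toward the bulb. The number of pairs that these shares alone would give was not worked out, so the counts are descriptions. En2 and Cnpy1 on chromosome 5, Zic5 and Zic2 on chromosome 14, and Irx1 and Irx2 on chromosome 13 were pairs toward the cerebellum. Dlx1 and Dlx2 on chromosome 2, Dlx6 and Dlx5 on chromosome 6, and Gabrg1 and Gabra2 on chromosome 5 were pairs toward the bulb. Of the 12146 probe sets with no gene entry, 3792 had a level above the floor on at least 1 array, and of these 26 lay at least 1 log2 unit higher in the cerebellum and 31 in the bulb. For compared genes the shares were 2.06% and 2.46%. These probe sets are unnamed here.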
